A study of Sus scrofa with 2 samples.

Results

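Duplex members were small RNAs of 21, 22 or 23 nt that could pair with another small RNA of the same library and length so that each strand kept a 2-nt overhang at its 3' end. They were found by sequence alone, without a genome. A sequence of length L was a member when the same table held another sequence of length L whose first L-2 nt were the reverse complement of its own first L-2 nt. The libraries came from pig oocytes that were matured in vitro for 42 h and had reached metaphase II, when an oocyte is ready to be fertilised. In the Dicer KD library, siRNA against Dicer had been given to the oocytes at the germinal vesicle stage, before maturation. The other library came from control oocytes of the same stage, and the labels do not say what the control oocytes received in place of the siRNA. The Dicer KD library held 1059 members among its 207965 distinct sequences of 21 to 23 nt, and the control library 995 among 226615. Together 1731 sequences were members in at least 1 table, of 359296 distinct sequences of these lengths and 1166705 sequences of all lengths.

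Dicer cuts long double-stranded RNA into short duplexes, and its staggered cut leaves a short 3' overhang on each strand. An Argonaute protein keeps one strand of such a duplex as an siRNA and discards the other. Mammalian oocytes are known for endogenous siRNAs, best described in the mouse, where they come from hairpins, from antisense transcripts and from retrotransposons. An overhang of 2 nt on both strands is the shape that Dicer leaves, but it can also arise when unrelated small RNAs are cut from opposite strands of a repeated element. The geometry alone therefore does not make a read an siRNA, and "siRNA-like" here means no more than that geometry.

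There was 1 library per group, so nothing was tested between the groups and no p-value was computed. Every comparison is between these libraries. Intervals are 95% intervals for counting error only, since PCR copies cannot be told from separate molecules. The libraries had 11982925 reads (Dicer KD) and 11836160 reads (control), of which 33.3% and 35.2% were 21 to 23 nt long. The level of Dicer itself was not analysed here, because small RNA libraries do not measure it, and so the knockdown was not checked.

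The pairs with the most reads on their weaker strand show the geometry best, because both strands were sequenced repeatedly. The letters in capitals pair with each other and the last letters, in lower case, are the overhangs. The leading pair in both libraries was 23 nt long.
ACACAATGG pair, strand 1: ACACAATGGAATACTACTCAGcc
ACACAATGG pair, strand 2: CTGAGTAGTATTCCATTGTGTat
The next pair of the Dicer KD library was 22 nt long and had a T at the start of each strand.
TACAGGAGT pair, strand 1: TACAGGAGTGAGAGTTCTGAgc
TACAGGAGT pair, strand 2: TCAGAACTCTCACTCCTGTAgg
A pair of 21 nt was among the first 5 of both libraries.
TAACGAATC pair, strand 1: TAACGAATCTGACTAGGAAcc
TAACGAATC pair, strand 2: TTCCTAGTCAGATTCGTTAac
A 22-nt pair was strongly uneven between its strands.
TCCGGACAA pair, strand 1: TCCGGACAAAGCTCTACTTAaa
TCCGGACAA pair, strand 2: TAAGTAGAGCTTTGTCCGGAaa
The pairs with the most reads of all owed them to 1 strand, and are shown because one of them decides the summed reads of the members.
TTACTTTCC pair, strand 1: TTACTTTCCAGTCTGTGGGGct
TTACTTTCC pair, strand 2: CCCCACAGACTGGAAAGTAAct
TCGATGGAC pair, strand 1: TCGATGGACATTTGGATTGTtt
TCGATGGAC pair, strand 2: ACAATCCAAATGTCCATCGAct

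In the ACACAATGG pair, strand 1 had 68 reads in the Dicer KD library and 73 in the control library, a ratio of 0.920 (0.651 to 1.30). Strand 2 of this pair had 24 Dicer KD reads and 48 control reads, a ratio of 0.494 (0.289 to 0.822). It was the weaker strand in both libraries, and its interval lay below equality while that of strand 1 did not. The TACAGGAGT pair had 29 and 18 reads on its strands in the Dicer KD library, and 30 and 10 in the control library. Its summed reads gave a ratio of 1.16 (0.745 to 1.82), whose interval holds 1. The TAACGAATC pair had 28 and 11 reads in the Dicer KD library and 28 and 15 in the control library, a ratio of 0.896 (0.566 to 1.42). The TCCGGACAA pair had 178 and 13 Dicer KD reads, against 143 and 3 control reads, a ratio of 1.29 (1.04 to 1.61). This pair was picked for its weaker strand in the Dicer KD library and not in the control library. That choice favours a high ratio, and the interval does not allow for it.

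The remaining pairs picked out by their weaker strand were small. The 22-nt pair TTCTGTCAATTTCTACTGTAca and TACAGTAGAAATTGACAGAAca had 11 and 22 Dicer KD reads, against 19 and 7 control reads. Its stronger strand was therefore the second in the Dicer KD library and the first in the control library. The 21-nt pair AGAAAATCATGGACTTGGAga and TCCAAGTCCATGATTTTCTct had 21 and 6 Dicer KD reads, against 17 and 24 control reads. The 22-nt pair CGAAACGATCTCAACCTATTct and AATAGGTTGAGATCGTTTCGgc had 17 and 3 Dicer KD reads, against 10 and 15 control reads. In each of these 3 pairs the stronger strand differed between the libraries, on few reads.

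The first question was whether 2-nt overhangs were more frequent than overhangs of other lengths. Members formed 741 pairs in the Dicer KD library and 709 in the control library. In the Dicer KD library there were 161 pairs with blunt ends, 364 with overhangs of 1 nt, 722 with 3 nt, 790 with 4 nt and 1109 with 5 nt. In the control library the same overhangs had 150, 319, 726, 820 and 1257 pairs. By pairs, 2 nt was thus not the most frequent overhang, and the pairs at 2 nt were 1.18 times the mean of the other 5 overhangs in the Dicer KD library and 1.08 times in the control library. Leaving out the most abundant pair at each overhang changed each count by 1 and left these values at 1.18 and 1.08.

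A longer overhang asks for fewer matching bases and allows more tails per paired stretch, which can raise its count of pairs. When each paired stretch was counted once, the Dicer KD library had 388 stretches at 2 nt, against 161, 264, 334, 319 and 367 at 0, 1, 3, 4 and 5 nt. The control library had 361 at 2 nt, against 150, 229, 320, 317 and 372. The 2-nt overhang then led in the Dicer KD library and was second to 5 nt in the control library. A further count, chosen after these values were seen, required the same number of paired bases at every overhang, namely the central L-5 nt. In that count the pairs at 2 nt numbered 1527 in the Dicer KD library and 1544 in the control library, the highest value of any overhang in either. The Dicer KD library had 782 blunt pairs, 1165 pairs at 1 nt, 1205 at 3 nt, 983 at 4 nt and 1109 at 5 nt. The control library had 791.5, 1102, 1192, 1035 and 1257 (values are means over both strand orientations). The 2-nt pairs were 1.46 times the mean of the other overhangs in the Dicer KD library and 1.44 times in the control library, and pairs share sequences, so these have no interval.

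Overhangs at the 5' end, which Dicer does not make, were scarcer. With the same paired length, 2-nt 5' overhangs gave 186 pairs in the Dicer KD library and 194 in the control library, against the 741 and 709 pairs with 2-nt 3' overhangs. Counted over the same L-5 nt, 3' overhangs of 2 nt were 3.12 times as frequent as 5' overhangs of 2 nt in the Dicer KD library and 2.91 times in the control library. In that count 3' overhangs outnumbered 5' overhangs at every other overhang length too. At 5 nt there were 1109 against 322.5 pairs in the Dicer KD library and 1257 against 274.5 in the control library. At 1 nt there were 1165 against 655.5 and 1102 against 628.5. The excess of 3' overhangs was therefore not particular to 2 nt.

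The preference for 2 nt was clearest at 22 nt. At equal paired length, 22-nt sequences gave 661.5 pairs at 2 nt in the Dicer KD library and 707 in the control library, which was 1.65 and 1.79 times the mean of the other overhangs. For 23 nt the values were 1.44 in the Dicer KD library and 1.37 in the control library. For 21 nt they were 1.19 and 1.03, and the most frequent overhang was 3 nt in the Dicer KD library and 1 nt in the control library. The lengths just outside the rule were not alike. At 20 nt the values were 1.02 in the Dicer KD library and 1.11 in the control library, with 4 nt the most frequent overhang in both. At 24 nt they were 1.62 and 1.33, with 2 nt the most frequent in both, so the pattern did not stop at 23 nt.

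Most pairs rested on very few reads. The weaker strand had 1 read in 488 of the 741 Dicer KD pairs (65.9%) and in 465 of the 709 control pairs (65.6%). It had at least 5 reads in 29 and 30 pairs, and at least 10 reads in 8 and 7. Among sequences with at least 2 reads, the Dicer KD library had 253 pairs at 2 nt and the control library 244. At equal paired length that minimum gave 472.5 pairs at 2 nt in the Dicer KD library and 431.5 in the control library, and the next highest overhang, 5 nt, had 364 and 412. With at least 5 reads the 2-nt pairs numbered 46.5 and 46, slightly below the 47 and 49 at 5 nt. Counted as distinct windows at that minimum, 2 nt had 32.5 in the Dicer KD library and 29 in the control library, against 22 and 28 at 5 nt. With at least 10 reads, 2 nt had 13 pairs in the Dicer KD library and 8.5 in the control library, against 10 pairs at 5 nt in each. Among the better sequenced members, the order of 2 nt and 5 nt thus depended on the library and on what was counted.

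The next comparison asked whether duplex reads were fewer in the Dicer KD library. Members took 1069 RPM (the count scaled to library size) in the Dicer KD library and 3992 RPM in the control library, a ratio of 0.268 (0.263 to 0.273). This difference rested on the TTACTTTCC pair. Its strand 1 had 43643 reads in the Dicer KD library and 36041 in the control library, a ratio of 1.20 (1.18 to 1.21). Its strand 2 had 0 Dicer KD reads and 2 control reads, so strand 1 was no member of this pair in the Dicer KD library although it was higher there. The TCGATGGAC pair, the most abundant of the Dicer KD library, had 1459 and 884 reads on strand 1 (Dicer KD and control) and 1 and 0 reads on strand 2.

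Without the most abundant pair of each table, members took 948 RPM in the Dicer KD library, on 1058 sequences, and 947 RPM in the control library, on 994. The ratio was 1.001 (0.975 to 1.03), whose interval held 1, though the members summed were not the same in the libraries. The mean was 10.7 reads per member in the Dicer KD library and 11.3 in the control library. By length, without these pairs, the ratio was 0.882 (0.818 to 0.9501) for 21 nt, 0.946 (0.910 to 0.983) for 22 nt and 1.11 (1.06 to 1.15) for 23 nt. All reads of 21 to 23 nt had a ratio of 0.948 (0.947 to 0.949). The read count of the weaker strand, summed over pairs, leaves out the abundant strands. It was 1265 in the Dicer KD library and 1229 in the control library, a ratio of 1.02 (0.939 to 1.10). A strand that was the weaker one of several pairs counted once in each. These sums are therefore not numbers of distinct reads, and the interval does not allow for the repeats.

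The reads at the other overhangs give the background for this ratio. Without the most abundant pair at each, the pairs with 3-nt overhangs took 1026 RPM in the Dicer KD library and 967 RPM in the control library. Blunt pairs took 300.2 and 246 RPM, those with 1 nt 443 and 305 RPM, those with 4 nt 749.9 and 817 RPM, and those with 5 nt 1025 and 1173 RPM. At 4 nt this step removed no reads in either library, because both strands of the pair stayed members through other pairs. The classes were therefore not reduced alike. The blunt, 1-nt and 3-nt classes were thus higher in the Dicer KD library, the 4-nt and 5-nt classes lower, and the 2-nt class, at 948 and 947 RPM, lay between them.

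A sequence counts as a member only where its partner was also sequenced, so a fixed set of sequences was followed in both libraries. The 323 sequences that were members in both tables had 552 RPM in the Dicer KD library and 594 RPM in the control library, a ratio of 0.9299 (0.899 to 0.962). The 1731 members of either table had a ratio of 1.12 (1.11 to 1.13), and without the sequences of the TTACTTTCC and TCGATGGAC pairs 0.919 (0.898 to 0.940). The side of 1 on which the ratio fell thus depended on which sequences were summed.

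Of the 1731 members, 43 had at least 100 reads over both libraries, and for these single ratios were read against all sequences of 21 to 23 nt at the same minimum. Of the 43, 1 (2.33%) was at least 2-fold higher in the Dicer KD library, against 4.71% of all such sequences, and 2 (4.65%) were at least 2-fold lower, against 6.86%. The median log2 ratio of Dicer KD to control was 0.05 for the members and -0.15 for all 4201 sequences. With a minimum of 20 reads, 15 of 170 members (8.82%) were higher, against 8.79% of all, and 23 (13.5%) were lower, against 14.0%. At 4-fold, 1 of the 43 was higher, against 2.05% of all, and 0 were lower, against 1.33%. The shares at a minimum of 20 reads were near the background.

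The 1 member called higher was AAACGAATCTGACTAGGAAcc, of 21 nt, with 107 reads in the Dicer KD library and 0 in the control library. Against a floor of 3 reads it was at least 35.2-fold higher, and the exact interval began at 28.2-fold. Its partner TTCCTAGTCAGATTCGTTTcc had 2 Dicer KD reads and 1 control read. It differs from strand 1 of the TAACGAATC pair by T1A, where the base of that strand comes first and positions count from its 5' end, and that strand had 28 reads in each library. The next largest ratios were below 2. GACTCTTAGCGGTGGATCAct had 119 Dicer KD and 62 control reads, a ratio of 1.90 (1.38 to 2.62), and TTAGTTTTCAGTCTGTGGAGCtt had 88 and 53, a ratio of 1.64 (1.15 to 2.35).

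The members called lower were both of 22 nt and began with T. TGCTTCTACAGTGGCTGTGGct had 77 Dicer KD and 231 control reads, a ratio of 0.329 (0.251 to 0.428). TCAAGGAACACAAGTCTGGGcc had 112 and 282 reads, a ratio of 0.392 (0.312 to 0.490). Their partners CCACAGCCACTGTAGAAGCAac and CCCAGACTTGTGTTCCTTGAat were nearly absent, with 1 and 0 reads (Dicer KD and control) for the first and 0 and 2 for the second. TGCCCTTGGTCTGAATCTGAAtg, of 23 nt, followed with 46 and 89 reads, a ratio of 0.511 (0.350 to 0.737). The best sequenced partner of each of these 6 members had at most 5 reads in either library. All 6 were picked for their ratios, and the intervals do not allow for that choice.

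Well sequenced pairs recurred, and rare ones mostly did not. The tables shared 183 pairs, which were 24.7% of the Dicer KD pairs and 25.8% of the control pairs. Of the 29 Dicer KD pairs with at least 5 reads on the weaker strand, 27 were also found in the control library (93.1%). Of the 30 such control pairs, 27 were found in the Dicer KD library (90.0%). With 1 read on the weaker strand, 15.2% of the Dicer KD pairs and 14.6% of the control pairs recurred. Among the 558 pairs found in the Dicer KD table alone, 368 had 1 strand in the control table and 190 had neither. Among the 526 found in the control table alone, 369 had 1 strand in the Dicer KD table and 157 had neither. A pair recurs only where both of its strands were sequenced again, which is more likely with more reads. Recurrence was not counted for pairs with other overhangs or for unpaired sequences of like read number. These shares therefore do not show whether recurrence was particular to this geometry.

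A 5' T, which Argonaute and Piwi proteins commonly favour, was frequent on both strands of these pairs. Among pairs with unequal strands, the stronger strand began with T in 64.1% of 574 Dicer KD pairs and in 68.4% of 564 control pairs. The weaker strand did so in 55.9% and 55.5%. Pairs in which neither strand began with T were 16.2% of all 2-nt pairs in the Dicer KD library and 13.8% in the control library. At the other overhangs this share ran from 23.3% at 4 nt to 31.7% for blunt pairs in the Dicer KD library, and from 18% for blunt pairs to 27.4% at 3 nt in the control library. The rule itself did not use the identity of the first base.

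Counted as sequences, 56.4% of the Dicer KD members began with T and 60.4% of the control members, against 63.3% and 63.5% of the other sequences of 21 to 23 nt. Length differed more. Sequences of 22 nt made up 42.1% of the Dicer KD members and 42.6% of the control members, against 31.9% of the others in both libraries, and 23 nt 33.8% and 32.7%, against 49.5% and 49.4%. The median GC content of members was 45.5% in the Dicer KD library and 43.5% in the control library, against 47.8% for the others in both. Members were seen in the other library more often, 48.8% of the Dicer KD members and 51.3% of the control members, against 36.1% and 33.1% of the others. The sets were not matched for read number. Sequences with a single read were 40.6% of the Dicer KD members and 41.4% of the control members, against 49.3% and 53.1% of the others.

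The strand that accumulates from an siRNA duplex is often the one whose 5' end pairs less tightly, so A and T were counted in the first 4 nt of each strand. The stronger strand had more A and T there in 176 Dicer KD pairs and fewer in 213, with 185 equal. In the control library it had more in 201 pairs and fewer in 166, with 197 equal. The libraries thus differed in direction. Among pairs with unequal strands, the stronger strand had a median of 3 times the reads of the weaker in both libraries. This median was also 3 at the other overhangs, except for 3.5 at 1 nt in the control library. The largest imbalances were 1459 in the Dicer KD library, in the TCGATGGAC pair, and 18021 in the control library, in the TTACTTTCC pair.

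The overhanging bases, also free under the rule, were led by CC. This tail ended 14.6% of the Dicer KD members and 13.2% of the control members, against 8.58% and 8.30% of all sequences of 21 to 23 nt in the library. The tail CT, the commonest overall at 18.6% and 18.02%, ended 10.01% and 10.6% of members. With the 2 strands of a paired stretch taken separately, most carried a single tail. These were 605 of 776 strand stretches in the Dicer KD library and 550 of 722 in the control library. The most variable had 7 tails in the Dicer KD library and 8 in the control library.

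Members were not independent of each other. Joined wherever they shared a run of 15 nt on either strand, the 1731 members fell into 190 families, of which 99 held a single pair of sequences. The 33 families with at least 10 members held 1236 members (71.4%), 76.5% of the Dicer KD pairs and 80.5% of the control pairs. No genome or repeat reference was used, so families were not assigned to genes or repeats. The largest held 200 members, including the TAACGAATC pair. The third largest family, with 129 members, 105 Dicer KD pairs, 78 control pairs and 35 distinct stretches, held duplexes shifted against each other. Some of its members differed by a base within the paired stretch, so the family did not lie along a single sequence. Besides the TCCGGACAA pair it held, among its pairs with at least 5 reads on each strand in 1 library, these shifted ones.
TGGGCATCT pair, strand 1: TGGGCATCTATCCGGACAAAgc
TGGGCATCT pair, strand 2: TTTGTCCGGATAGATGCCCAag
TAGAGCTTT pair, strand 1: TAGAGCTTTGTCCGGATAGAtg
TAGAGCTTT pair, strand 2: TCTATCCGGACAAAGCTCTAct
The TGGGCATCT pair had 6 and 95 Dicer KD reads and 2 and 81 control reads. The TAGAGCTTT pair had 4 and 8 Dicer KD reads and 9 and 9 control reads. These pairs were chosen after their values were seen.

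By family, the ratios lay on both sides of 1. The largest family had 945 Dicer KD and 732 control reads, a ratio of 1.28 (1.16 to 1.41). The second had 368 and 363 reads, a ratio of 1.001 (0.864 to 1.16), and the family of the TCCGGACAA pair 2117 and 2231, a ratio of 0.937 (0.883 to 0.995). A family led by TCGAATCAGAGCTGTAGCCAcc had 1583 Dicer KD and 1824 control reads, a ratio of 0.857 (0.801 to 0.917). Another, led by TCCAGCACAAATGAACATCTCct, had 1528 and 1384 reads, a ratio of 1.09 (1.01 to 1.17). Over the 33 larger families the median ratio was 0.913 and the lowest 0.535. Only 1 of the 33 was at least 2-fold higher in the Dicer KD library, and 0 were at least 2-fold lower. Other sequences were not grouped in this way, so these counts have no background. The 1 family was led by TCCGATTCAACCCCTAGCCtg and had 12 members, with 26 Dicer KD and 8 control reads, a ratio of 3.21 (1.41 to 8.20). It held 6 Dicer KD pairs and 1 control pair, so its sequences came mostly from the library where its ratio is high. The interval does not allow for this, and the lead sequence had 4 Dicer KD and 6 control reads.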

How the data were processed

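Adapters were ligated to the small RNAs, which were reverse transcribed, amplified by PCR and sequenced on an Illumina HiSeq, per the labels' protocols. For each library the authors deposited a table with the length, the raw read count and the sequence of each distinct read of 18 to 44 nt, not normalized. The submitters' processing notes name Bowtie2. Its role, the build and the trimming are not given in the sources used here. Lengths, in nt, are the deposited values and equal the letters of each sequence.

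The 3 Dicer KD sequences with an undetermined base were left out of pairing. Unordered pairs of distinct sequences of the same length were counted within each table. RPM are reads scaled to the total reads of the library. Ratios of Dicer KD to control have exact conditional intervals. Log2 ratios of single members had 0.5 reads added to each count; 0 reads were given a floor of 3, worth 0.250 RPM in the Dicer KD library and 0.253 RPM in the control library. Named pairs were the 5 per library with the most reads on the weaker strand, the most abundant pair per library and the 3 leading pairs of both tables; named members were the 3 with the largest and the 3 with the smallest ratio among those with at least 100 reads. The rule and lists were chosen with earlier results of these data known. Pair finding and intervals were tested on simulated data. Alternatives varied the read minimum, mismatches, the sequences summed and the reads that values are relative to. The tools were scipy 1.17.1, pandas 2.3.3 and numpy 2.4.6 under Python 3.11.15.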

Additional observations from a re-analysis of the deposited data

How the results depend on the processing

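The number of pairs followed the read minimum and the match. In the Dicer KD and control libraries it was 253 and 244 with at least 2 reads per sequence, 8 and 7 with at least 10, and 4175 and 3982 with 1 mismatch allowed. The excess of 2-nt pairs over other overhangs stayed above 1 and within 1.5 times its value under every alternative run. At equal paired length it was 1.39 in the Dicer KD library and 1.36 in the control library without sequences sharing 15 nt with the 3 largest families, but 5 nt then had 1059 control pairs against 1052 at 2 nt. The log2 ratio of member reads, -1.90, moved to -3.02 with at least 2 reads, -0.86 with 1 mismatch, -1.82 relative to reads of 21 to 23 nt and -0.105 for members of both tables. It turned to 0.0012 without the most abundant pairs, 0.57 with at least 10 reads, 0.16 for members of either table and 0.024 for the weaker strand, the last added after seeing the data. It was -1.897 when the same member reads were scaled to library totals that left out the 10 most abundant sequences. Of the members with at least 20 reads, 15 were called higher and 23 lower, and at 4-fold 1 and 0. No pair had a stretch that was its own reverse complement, so that alternative changed nothing. Leaving out miRNA matches was not run, because no miRNA table was used here. No paired analysis was possible because each group had 1 library.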

Other observations

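Outside the rule, duplex geometry at equal paired length was also counted for longer reads. At 25 nt the 2-nt overhang led in both libraries, with 205 pairs in the Dicer KD library and 184.5 in the control library, 1.63 and 1.47 times the mean of the other overhangs. At 26 nt there were 25.5 and 58 pairs, 0.828 and 1.91 times the mean of the other overhangs. The most frequent overhang there was 5 nt in the Dicer KD library and 2 nt in the control library, so the libraries differed. At 27 nt there were 3 and 1 pairs and at 28 nt 3 and 10, too few to order the overhangs. Synthetic siRNAs often end in TT on both strands. A 2-nt pair with both overhangs TT occurred 1 time in the Dicer KD library, with 3 reads over its strands, and 1 time in the control library, with 2 reads. The siRNA given to the oocytes was not given in the sources used here, so its own sequence was not searched for.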
